A study of Mus musculus with 9 samples.

Results

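Neutrophils store antimicrobial proteins and proteases in granules that are filled while the cell matures in the marrow. The 8 genes described here encode such proteins. Ltf, Ngp, Camp and Lcn2 belong to the secondary (specific) granules, and Mpo, Elane, Prtn3 and Ctsg to the primary (azurophil) granules. They were taken as a named list, matched by gene symbol, and all 8 were found among the 45777 genes of the tables. The list was selected on the levels of these genes in the same 9 samples and their differences between the groups, so those values are given as a description and no test of a member is reported.

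The values come from bulk RNA sequencing of CD11b+ cells isolated from mouse liver 48 hours after an intraperitoneal overdose of APAP (acetaminophen), a drug that in excess kills hepatocytes and draws inflammatory cells into the liver. CD11b is the surface integrin of monocytes, macrophages and neutrophils. The 9 samples form 3 groups of 3, and every mouse had received APAP. The PBS group received the carrier only (titled APAP), the HEK-EV group extracellular vesicles described as HEK cell derived SIRP-EV (APAP+HEKSIRP-EV), and the MSC-EV group vesicles described as MSC derived SIRP-EV (APAP+SIRP-EV), given intravenously 8 hours after APAP. HEK cells are a human embryonic kidney line and MSC are mesenchymal stem or stromal cells. Both kinds of vesicle carried SIRP, so neither group shows what vesicles without it do, and no liver without APAP was analysed here. The strain, sex and age of the mice, and whether a sample is 1 animal or a pool, are not given in the sources used here, so p-values measure the spread between these samples only.

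Primary granule proteins are made first, at the promyelocyte stage, and secondary granule proteins later, at the myelocyte and metamyelocyte stages. Both sets of genes are largely switched off again before a neutrophil leaves the marrow, so that a circulating neutrophil carries much of the protein and little of the mRNA. Some of these genes are also used outside the neutrophil lineage: Lcn2 by inflamed macrophages, epithelium and hepatocytes, and Ltf by glandular epithelium.

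The libraries were alike in breadth, with 13130 to 13633 genes at or above 1 TPM, a transcript abundance scaled to gene length and to a fixed total per library. How many reads lie behind a value is unknown, and values therefore carry no counting error or limit of detection. A relative measure of depth is coverage divided by FPKM, which grows as more fragments are sequenced. Its median over genes was 5.16 for PBS replicate 1 and between 5.92 and 6.17 for the other PBS samples, while HEK-EV samples had 6.11 to 6.33 and MSC-EV samples 6.44 to 6.70. Itgam, which encodes CD11b, was at 196 to 434 TPM in every sample. Pancreatic acinar transcripts were present in HEK-EV replicates 1 and 2 and in MSC-EV replicates 1 and 3, where all 10 genes of an acinar list were above 0 and summed to 31.3, 784, 110 and 2185 TPM. The same genes summed to 13.3 to 15.2 TPM in the other 5 samples, with 2 or 3 of them above 0. Differences of the 5 more abundant members and counts of other granule genes are therefore also given without those 4 samples, which leaves 1 HEK-EV and 1 MSC-EV sample. The HEK-EV sample left, replicate 3, was the highest of its group for each of these 5 members. The MSC-EV sample left, replicate 2, was the lowest of its group for each. The comparisons of HEK-EV and of MSC-EV with PBS share the PBS samples and are not independent.

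Ltf, Ngp and Camp were higher in every MSC-EV sample than in every PBS sample, and their mean TPM was about 2 times that of PBS. Lcn2 and Prtn3 had lower means in the MSC-EV group than in both other groups. Mpo, Elane and Ctsg were barely detected in any sample. Lcn2 thus stood apart from the other secondary members, Ltf, Ngp and Camp: its mean was lowest in the MSC-EV group, as was that of Prtn3. Of 12 other secondary granule genes, described below, 9 were also lower on average in the MSC-EV group than in each other group, and 3 were higher. Prtn3 was the 1 primary member above 1 TPM and the 1 from which the primary side of the list can be read. Within the PBS and HEK-EV groups Lcn2 and Ltf stood in the same order of samples. The patterns of the members were seen in the values and were not tested. In bulk samples, fewer cells of a type and less RNA per cell cannot be told apart.

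**Figure D1:**
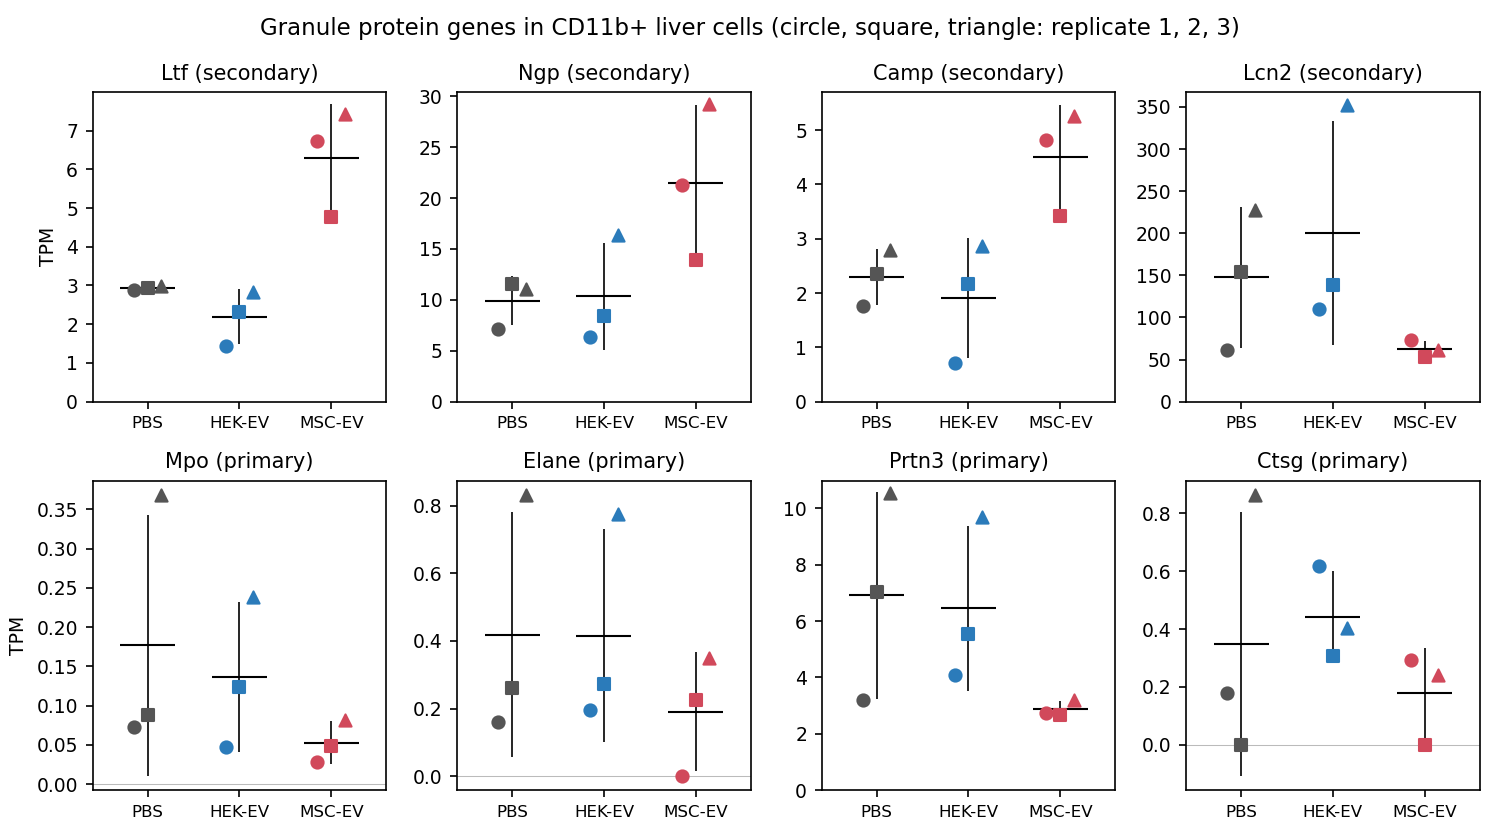
TPM (vertical axis, linear, from 0 except where an error bar passes below it) of the 8 granule genes in the 3 groups. Points are samples, long bars are group means and vertical lines are 1 SD (n = 3). Ltf, Ngp and Camp are highest in the MSC-EV group, Lcn2 and Prtn3 are lowest there, and Mpo, Elane and Ctsg stay under 1 TPM.

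Lactoferrin, the product of Ltf, is an iron-binding protein that withholds iron from microbes. Ltf (gene ID 17002, mm10, chromosome 9, 111019292 to 111042766) was at 2.88, 2.94 and 2.99 TPM in PBS replicates 1, 2 and 3, at 1.45, 2.31 and 2.84 TPM in the HEK-EV replicates, and at 6.72, 4.76 and 7.43 TPM in the MSC-EV replicates. The PBS values lay within a very narrow range, and the groups did not overlap in any of the 3 comparisons, with HEK-EV lowest and MSC-EV highest. The group means were 2.94 ± 0.0545, 2.20 ± 0.702 and 6.30 ± 1.38 TPM (SD, n = 3). On the log2(TPM + 1) scale, on which all differences below are given and which understates the change of low genes, MSC-EV differed from PBS by 0.87 (SE 0.187) and from HEK-EV by 1.20, with the same SE, and HEK-EV from PBS by -0.32. Without the 4 samples with acinar transcripts, the first difference was 0.55 and the second 0.59, from 1 MSC-EV sample that was also the lowest of its group. The third was -0.04 without those samples and -0.14 without HEK-EV replicate 1.

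Ngp, the neutrophilic granule protein, is a relative of the cathelicidins. Ngp (gene ID 18054, chromosome 9, 110419808 to 110423012) was at 7.17, 11.5 and 11.1 TPM in the PBS samples, at 6.35, 8.45 and 16.3 TPM in the HEK-EV samples and at 21.3, 13.9 and 29.2 TPM in the MSC-EV samples. All 3 MSC-EV values were above the PBS values, but MSC-EV replicate 2 was below HEK-EV replicate 3. The difference between MSC-EV and PBS was 1.01 (SE 0.340), and that between MSC-EV and HEK-EV was 1.02. Without the samples with acinar transcripts these became 0.47 and -0.22, so the second changed sign. It then set the lowest MSC-EV sample against the highest HEK-EV sample. HEK-EV and PBS differed by -0.01, by 0.69 without the samples with acinar transcripts, and by -0.36 to 0.25 with 1 sample left out.

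Camp encodes the mouse cathelicidin, which is cut to a membrane-lysing peptide after release. Camp (gene ID 12796, chromosome 9, 109847377 to 109849456) was at 1.75, 2.35 and 2.79 TPM in the PBS samples, at 0.703, 2.16 and 2.88 TPM in the HEK-EV samples and at 4.82, 3.42 and 5.27 TPM in the MSC-EV samples. The MSC-EV values lay above those of both other groups, and HEK-EV replicate 1 was the lowest of the 9 samples, as it was for Ltf and Ngp. The difference was 0.73 (SE 0.284) between MSC-EV and PBS, 0.98 between MSC-EV and HEK-EV, and -0.25 between HEK-EV and PBS. Without the samples with acinar transcripts they were 0.43, 0.19 and 0.25, so the last changed sign, as it did without HEK-EV replicate 1 (0.10).

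Lipocalin-2, the product of Lcn2, binds the siderophores by which bacteria take up iron. Lcn2 (gene ID 16819, chromosome 2, 32384637 to 32387739) was at 61.4, 154 and 228 TPM in the PBS samples, at 110, 138 and 353 TPM in the HEK-EV samples and at 73.0, 53.1 and 61.7 TPM in the MSC-EV samples. It was the most abundant of the 8 genes in every sample, and its PBS and HEK-EV values were widely scattered where the MSC-EV values were not. The MSC-EV samples were below all HEK-EV samples but overlapped the PBS samples through PBS replicate 1. The group means were 148 ± 83.2, 200 ± 133 and 62.6 ± 9.97 TPM. The difference was -1.04 (SE 0.502) between MSC-EV and PBS, -1.48 between MSC-EV and HEK-EV, and 0.44 between HEK-EV and PBS. The last turned to -0.09 without PBS replicate 1 and to -0.06 without HEK-EV replicate 3. Without PBS replicate 1 the first was -1.57, without PBS replicate 3 it was -0.64, and without HEK-EV replicate 3 the second was -0.98. Without the samples with acinar transcripts the difference was -1.26 between MSC-EV and PBS, -2.71 between MSC-EV and HEK-EV and 1.44 between HEK-EV and PBS.

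Among the primary granule members of the list, Prtn3 was the only one above 1 TPM. It encodes proteinase 3, a serine protease. Prtn3 (gene ID 19152, chromosome 10, 79879667 to 79883174) was at 3.19, 7.03 and 10.5 TPM in the PBS samples, at 4.09, 5.55 and 9.70 TPM in the HEK-EV samples and at 2.74, 2.66 and 3.20 TPM in the MSC-EV samples. The MSC-EV values were below all HEK-EV values and touched the PBS range at PBS replicate 1. The difference was -0.92 (SE 0.358) between MSC-EV and PBS, -0.88 between MSC-EV and HEK-EV, and -0.04 between HEK-EV and PBS. Without PBS replicate 3 the first was -0.59, and without HEK-EV replicate 3 the second was -0.58. Without the samples with acinar transcripts they were -0.995 and -1.55, and HEK-EV exceeded PBS by 0.55. That last difference ran from -0.44 to 0.29 with 1 sample left out. Prtn3 shares 6.45% of the 50-base stretches of its annotated transcripts with the neighbouring gene Plppr3, which was at 0.833 to 2.07 TPM, so a small part of its value is uncertain.

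The other primary members, Elane, Mpo and Ctsg, stayed under 1 TPM in all 9 samples. Elane encodes neutrophil elastase (gene ID 50701, chromosome 10, 79886312 to 79888216) and ranged from 0, listed for MSC-EV replicate 1, to 0.833 TPM in PBS replicate 3. Mpo encodes myeloperoxidase, which makes hypochlorous acid (gene ID 17523, chromosome 11, 87793784 to 87804412), and ranged from 0.0283 TPM in MSC-EV replicate 1 to 0.369 TPM in PBS replicate 3. Ctsg encodes cathepsin G (gene ID 13035, chromosome 14, 56099885 to 56102574), and ranged from 0, listed for PBS replicate 2 and MSC-EV replicate 2, to 0.864 TPM in PBS replicate 3. The mean coverage behind these values was 0.0762 to 0.992 reads per base for Mpo, 0 to 2.24 for Elane and 0 to 2.33 for Ctsg, against 126 to 851 for Lcn2 and 3.61 to 20.0 for Ltf. These genes were below the filter and were not tested, and at such levels no difference between groups is read from them. Their ranges overlapped in every comparison except that of Ctsg between MSC-EV (0 to 0.294 TPM) and HEK-EV (0.308 to 0.617 TPM). In the annotated transcripts of Mpo, 9.64% of 50-base stretches also occur in other genes. For Ltf, Ngp, Camp, Lcn2, Elane and Ctsg none do.

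Because TPM is scaled per length, the levels of the genes can be set beside each other. In the PBS group the order of mean TPM was Lcn2, Ngp (9.93 ± 2.40), Prtn3 (6.92 ± 3.67), Ltf (2.94), Camp (2.30 ± 0.517), Elane (0.419 ± 0.362), Ctsg (0.348 ± 0.456) and Mpo (0.177 ± 0.167). The ranges of the neighbours Ngp and Prtn3 overlapped, as did those of Elane, Ctsg and Mpo, while Prtn3 was above Ltf and Ltf above Camp in every PBS sample. The HEK-EV means of the 5 more abundant genes stood in the same order, with Ngp at 10.4 ± 5.26, Prtn3 at 6.45 ± 2.91, Ltf at 2.20 and Camp at 1.91 ± 1.11 TPM after Lcn2, and there the ranges of Ltf and Camp overlapped. In the MSC-EV group Ngp (21.5 ± 7.67), Ltf (6.30) and Camp (4.50 ± 0.965) came before Prtn3 (2.87 ± 0.294). Prtn3 thus exceeded Ltf in all 6 PBS and HEK-EV samples, at 1.11 to 3.52 times its TPM, and was below it in all 3 MSC-EV samples, at 0.408 to 0.558 times. Lcn2 made up 79.9% to 91.4% of the summed TPM of the 8 genes with PBS or HEK-EV, against 57.4% to 68.0% with MSC-EV.

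The ratios within a sample show which of these genes varied together. Over the 9 samples the TPM of Ltf varied 5.13-fold and that of Lcn2 6.64-fold. The ratio of Ngp to Ltf varied only 2.32-fold, from 2.48 to 5.75, and that of Camp to Ltf 2.08-fold, from 0.486 to 1.01. In the MSC-EV samples the ratio of Camp to Ltf lay between 0.709 and 0.717. The ratio of Lcn2 to Prtn3 varied 1.90-fold, from 19.2 to 36.4, across the division between primary and secondary granules. The ratio of Lcn2 to Ltf, both secondary granule genes, varied 14.9-fold, and lay between 21.3 and 124 with PBS or HEK-EV and between 8.31 and 11.2 with MSC-EV. These are relations between members of a list read from the same 9 libraries, and no p-value is attached to them.

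**Figure D2:**
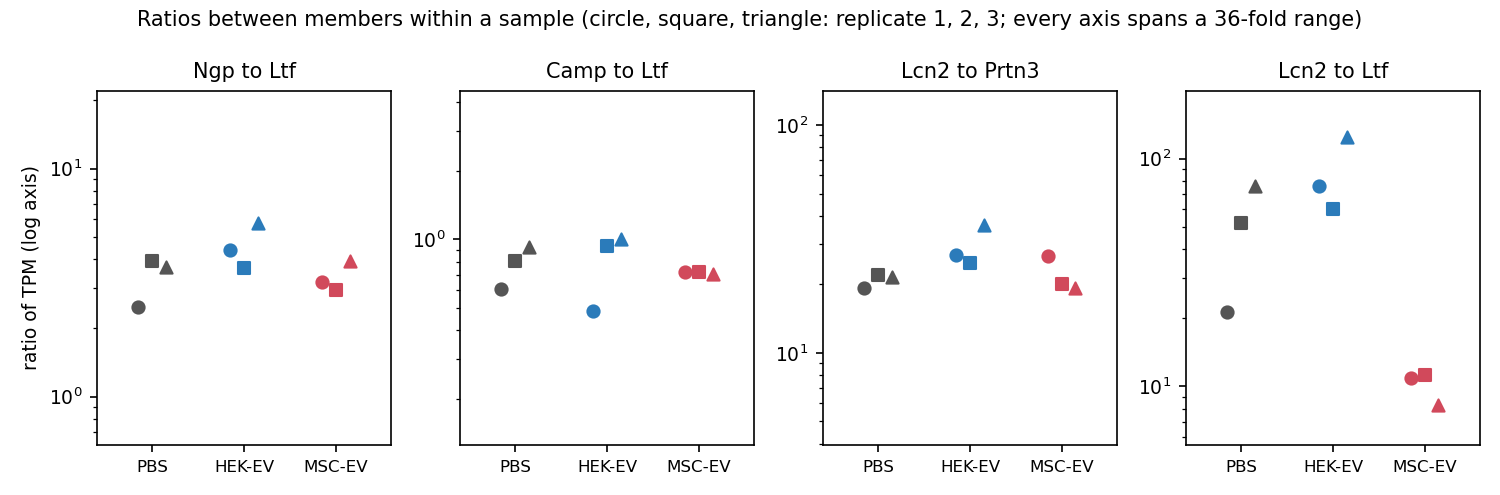
Ratios of TPM between pairs of members within each sample, on log axes that all span the same fold range. Points are samples. The ratios of Ngp to Ltf, Camp to Ltf and Lcn2 to Prtn3 stay within 2.32-fold over the 9 samples, and the ratio of Lcn2 to Ltf is 21.3 or more with PBS or HEK-EV and 11.2 or less with MSC-EV.

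Within groups, single libraries were high or low for nearly all members. PBS replicate 3 was the highest PBS sample for 7 of the 8 genes and PBS replicate 1 the lowest for 7. HEK-EV replicate 3 was the highest HEK-EV sample for 7 and HEK-EV replicate 1 the lowest for 7. MSC-EV replicate 3 was the highest for 6 and MSC-EV replicate 2 the lowest for 6. These counts include Mpo, Elane and Ctsg, and the share of all genes with the same order was not counted. The mature neutrophil genes listed below also had their highest PBS and HEK-EV sums in replicate 3 and their lowest PBS sum in replicate 1. Their lowest HEK-EV sum was in replicate 2, and their MSC-EV sum was highest in replicate 1 and lowest in replicate 3. PBS replicate 1 was also the sample with the lowest ratio of coverage to FPKM, and its part in these levels was not tested. With that ratio as a term in the fit the difference of Ltf between MSC-EV and PBS was 0.90, that of Ngp 0.71, that of Camp 0.42, that of Lcn2 -2.23 and that of Prtn3 -1.90. The ratio was higher in every MSC-EV sample than in every other sample, so depth and the MSC-EV group cannot be told apart in these values.

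**Figure D3:**
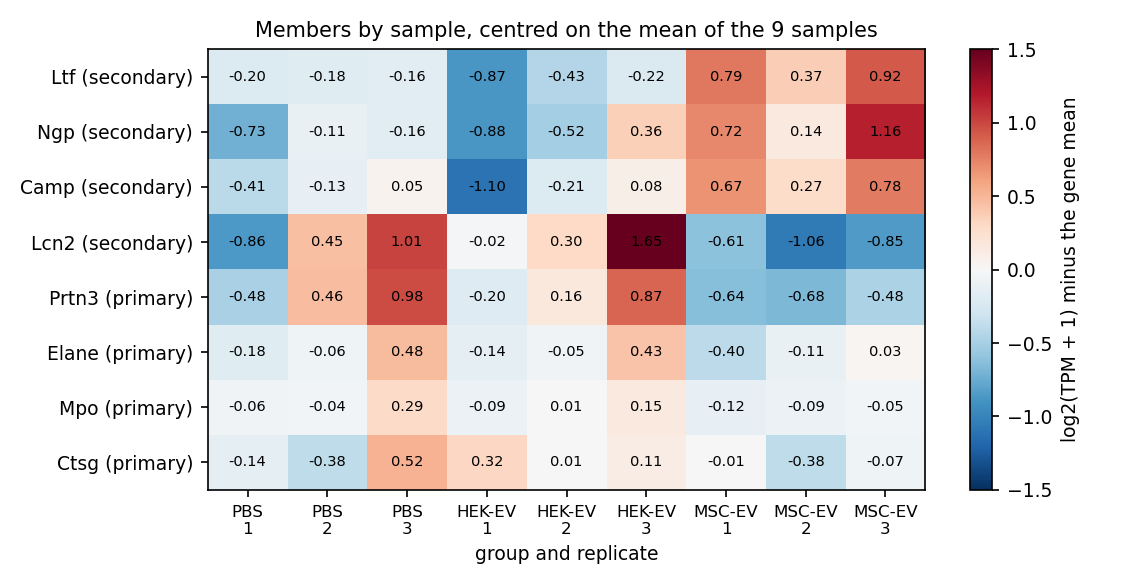
Level of each member in each sample as log2(TPM + 1) minus the mean of that gene over the 9 samples. Red is above the mean and blue below, with the value in each cell. Ltf, Ngp and Camp are above their means in all 3 MSC-EV samples, while Lcn2 and Prtn3 are below theirs in those samples and highest in replicate 3 of the PBS and HEK-EV groups.

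Averaged over the 4 secondary genes, MSC-EV exceeded PBS by 0.39 and HEK-EV by 0.43, a small mean because Lcn2 went against the other members. Averaged over the 4 primary genes, the differences were -0.36 and -0.38, and -0.75 and -0.92 with a pseudocount of 0.1. These averages include Mpo, Elane and Ctsg, from whose levels no difference is read, so the primary side of the list rests on Prtn3. For HEK-EV against PBS the averages were -0.04 and 0.02. The per-sample gap between the secondary and the primary mean was 2.40 to 2.80 in the PBS samples, 2.09 to 2.86 with HEK-EV and 3.02 to 3.46 with MSC-EV, which did not overlap the others. That gap includes the same 3 genes and is given as a description. With the depth ratio, itself highest in the MSC-EV samples, as a term the secondary average against PBS was -0.05. Without the samples with acinar transcripts it was 0.05 against PBS and -0.54 against HEK-EV.

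Of the 8 members, 5 had at least 1 TPM in at least 3 samples and were part of the fit across 13820 genes, which gave the SE values above. Each of the 5 reached 1 TPM in 8 or 9 samples, so none entered through 1 group alone. Of all genes tested, 5.11% had a limma adjusted p under 0.05 between MSC-EV and PBS, and 1.86% were called higher. Between MSC-EV and HEK-EV 5.91% were called, and 1.51% were higher. The members took part in that fit only so that every gene was treated alike, and since they were selected on these comparisons no call on a member is reported. The share of genes whose MSC-EV values all lay above the PBS values was 11.2%, and Ltf, Ngp and Camp, 3 of the 5, were among them, from which nothing is read for the same reason. Between MSC-EV and HEK-EV 12.6% of genes lay wholly above, 2 of the 5 members (Ltf and Camp) among them, and 17.5% wholly below, with Lcn2 and Prtn3 among them. In HEK-EV against PBS limma called 0% of genes, with 495 of 13820 at an unadjusted p under 0.05. There 5.51% of genes lay wholly above PBS, with 0 of the 5 members among them, and 2.29% wholly below, with Ltf among them. The share of MSC-EV genes wholly below PBS was 14.9%, with 0 of the 5 members among them.

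The secondary granule genes are known targets of the factor C/EBP epsilon, and the primary granule genes of PU.1 with other factors. The 300 bases around each start site (250 before it and 50 after, RefSeq, GRCm38.p6) were searched on both strands for the letters TTGCNNAA, a C/EBP core, and GAGGAAG, a PU.1 core. Their matches did not overlap each other. All 8 members had a sequence. TTGCNNAA was found at Ltf, Ngp and Lcn2, that is in 3 of the 4 secondary genes, in 0 of the 4 primary genes, and in 10.8% of all 32851 promoter sequences. GAGGAAG was found in all 4 primary genes, in 1 of the 4 secondary genes (Lcn2), and in 13.6% of all. Lcn2 was the member with both. TGTGGT, a RUNX core, was found at Ltf and Ctsg and in 16.8% of all promoters, and the NF-kB motif in 0 members and in 4.51% of all. The motifs were chosen with the levels of these genes known, and a match shows letters and not a bound site.

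The stretches upstream of the start site are shown for Ltf, Ngp and Camp, which varied together, and for Lcn2, Prtn3 and Elane, to show where the letters lie. Camp held none of the motifs searched and has no capitals. Each runs 5′ to 3′ along the gene's own strand and ends at the base before the start site, and capitals mark TTGCNNAA in the first 2, both motifs in Lcn2, and GAGGAAG in the last 2, in either orientation. They are Ltf at chr9:111019142-111019291 (plus strand), Ngp at chr9:110419658-110419807 (plus), Camp at chr9:109849457-109849606 (minus), Lcn2 at chr2:32387740-32387989 (minus), Prtn3 at chr10:79879517-79879666 (plus) and Elane at chr10:79886162-79886311 (plus).
Ltf: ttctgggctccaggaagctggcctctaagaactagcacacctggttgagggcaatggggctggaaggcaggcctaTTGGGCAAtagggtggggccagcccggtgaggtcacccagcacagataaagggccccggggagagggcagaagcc
Ngp: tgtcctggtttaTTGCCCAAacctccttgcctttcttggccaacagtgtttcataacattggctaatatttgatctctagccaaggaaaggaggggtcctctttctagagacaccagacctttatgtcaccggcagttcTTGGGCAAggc
Camp: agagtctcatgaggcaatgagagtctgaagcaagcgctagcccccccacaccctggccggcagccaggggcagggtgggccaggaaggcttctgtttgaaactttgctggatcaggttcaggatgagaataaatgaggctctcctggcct
Lcn2: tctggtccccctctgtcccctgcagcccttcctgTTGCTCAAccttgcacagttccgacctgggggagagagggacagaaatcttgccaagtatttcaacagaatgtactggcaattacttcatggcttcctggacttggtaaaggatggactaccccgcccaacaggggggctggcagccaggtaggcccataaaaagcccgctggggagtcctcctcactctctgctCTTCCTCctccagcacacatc
Prtn3: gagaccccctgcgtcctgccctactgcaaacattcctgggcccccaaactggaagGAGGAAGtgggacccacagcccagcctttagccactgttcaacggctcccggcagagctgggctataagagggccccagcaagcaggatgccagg
Elane: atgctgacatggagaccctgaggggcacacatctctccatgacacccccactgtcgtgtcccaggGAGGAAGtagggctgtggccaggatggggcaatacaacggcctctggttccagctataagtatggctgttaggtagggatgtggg

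The match began 75 bases before the start site at Ltf, 138 and 11 bases before it at Ngp, and 216 bases before it at Lcn2, whose GAGGAAG lay 21 bases before. At Prtn3 and Elane, neighbours on chromosome 10 that are 3138 bases apart and read in the same direction, GAGGAAG lay 95 and 85 bases before the start site. Prtn3 was at 2.66 to 10.5 TPM where Elane was at 0 to 0.833 TPM, so these adjacent genes differed widely in level.

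The genes next to the members are given for comparison of levels. Ccrl2, a chemokine-binding receptor and the nearest gene above Ltf, was at 286 to 366 TPM in the PBS samples, 279 to 351 with HEK-EV and 332 to 409 with MSC-EV. Klhl18, 2914 bases from Ngp, was at 19.5 to 27.3 TPM over the 9 samples and Ptpn23, on its other side, at 19.5 to 28.4. Nme6, next to Camp, was at 9.91 to 14.9 TPM with PBS, 8.12 to 12.8 with HEK-EV and 15.4 to 16.9 with MSC-EV. Ptges2 and 1110008P14Rik, on either side of Lcn2, were at 10.2 to 11.7 and 26.6 to 39.9 TPM over the 9 samples. Mcpt8, a basophil protease gene next to Ctsg, was at 0.13 to 2.17 TPM, and Tspoap1, next to Mpo, at 1.18 to 1.73 TPM. The nearest genes on the other side of Ltf, Camp, Mpo, Elane and Ctsg were under 0.1 TPM in every sample.

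Other genes of the granules and of their control were counted in 4 lists, 36 genes of which 31 were tested. Between MSC-EV and PBS 8 of the 31 changed, 7 lower and 1 higher (limma, adjusted p under 0.05), where 3.25% of all genes were called lower and 1.86% higher. The median difference of the 31 was -0.33, against 0.01 over all genes, and 25 of them were below 0. Between MSC-EV and HEK-EV 14 changed, 12 lower and 2 higher, with a median of -0.52, where 4.40% of all genes were called lower. Between HEK-EV and PBS limma called 0 of the 31, with 2 at an unadjusted p under 0.05. These counts depended on single libraries. Between MSC-EV and PBS the count was 19 without PBS replicate 1, 0 without PBS replicate 2 or MSC-EV replicate 1, 1 without PBS replicate 3 or MSC-EV replicate 2, and 4 without HEK-EV replicate 2. Between MSC-EV and HEK-EV it was 0 without any 1 of the 3 HEK-EV samples or without MSC-EV replicate 1 or 2, and 7 without MSC-EV replicate 3. Without the 4 samples with acinar transcripts both counts were 0. The share of higher genes among all calls was 36.4% for MSC-EV against PBS on TPM, 63.1% on FPKM and 45.6% with median-of-ratios scaling, and 25.6%, 59.5% and 43.9% for MSC-EV against HEK-EV. No called gene of these lists changed direction under any alternative, but each lost its call under some, from 3 of 19 (Ltb4r1) to 15 of 19 (Ctsc) against PBS and from 6 of 20 (Ltb4r1 and Itgb2) to 13 of 20 (Srgn and Fcnb) against HEK-EV. The shift of the median gene was under 0.1 (log2) with every scaling.

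**Figure D4:**
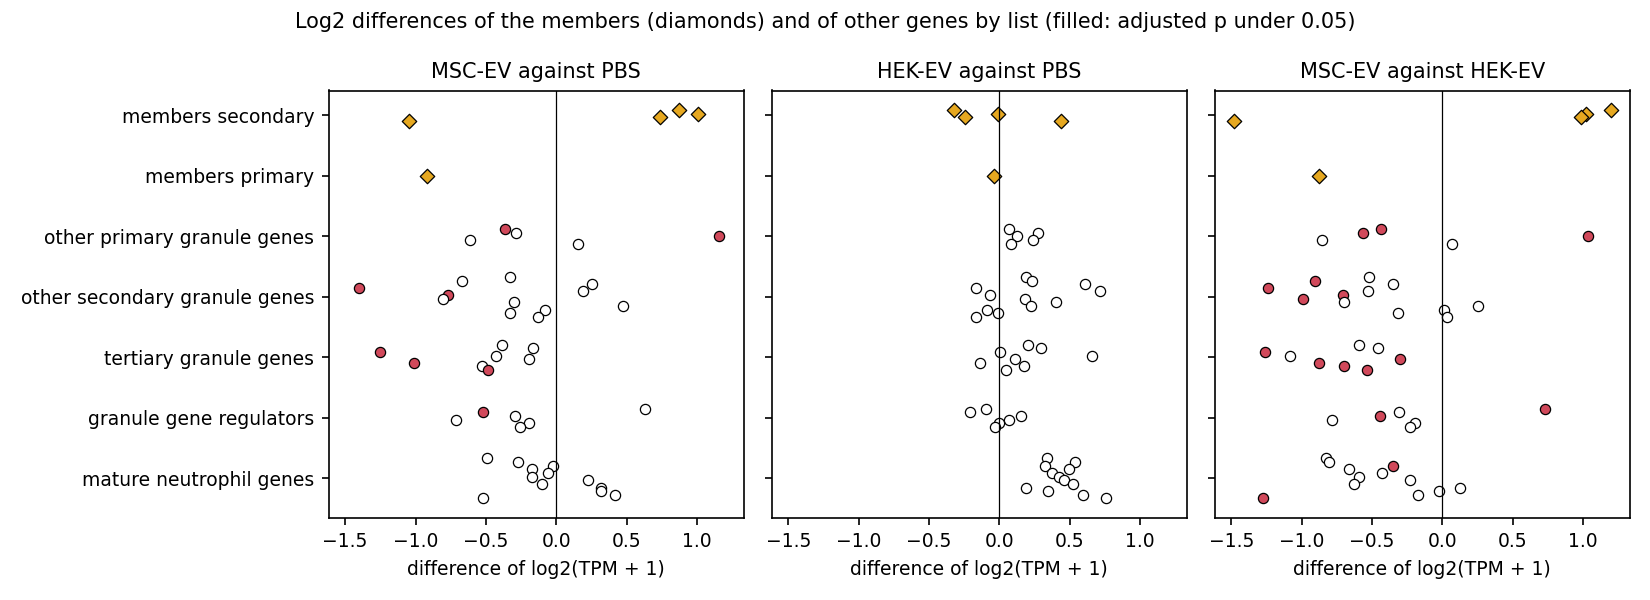
Difference of log2(TPM + 1) in the 3 comparisons for the members (diamonds) and for other genes by list (circles), genes tested only. Filled circles had an adjusted p under 0.05, and no such mark is given for members. In both MSC-EV comparisons Ltf, Ngp and Camp lie to the right and Lcn2 and Prtn3 to the left, with most other granule genes on the left.

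In the tertiary (gelatinase) granule list all 8 differences between MSC-EV and PBS were below 0, also with FPKM and both other scalings, and 3 genes fell (limma). Ltb4r1, the receptor for leukotriene B4, had mean TPM of 38.6 ± 7.91 with PBS, 34.6 ± 1.81 with HEK-EV and 18.5 ± 1.61 with MSC-EV (-1.01, SE 0.130, limma adjusted p = 0.0119). Fcnb, a ficolin made by immature myeloid cells, averaged 5.81 ± 3.02, 5.44 ± 1.13 and 1.69 ± 0.486 TPM (-1.25, adjusted p = 0.0492), a call lost under 14 of 19 alternatives. Itgb2, the beta chain that pairs with CD11b, fell by 0.49 (adjusted p = 0.0218). Against HEK-EV 5 of the 8 fell, with Itgam (-0.70, adjusted p = 0.0257) and Slc11a1 (-0.30, adjusted p = 0.0267), a metal transporter, besides these. Leaving out 1 sample at a time, the difference of Ltb4r1 from PBS ran from -1.15 to -0.86. Between HEK-EV and PBS the smallest p was that of Slc11a1 (0.11, adjusted p = 0.999).

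Of 12 other secondary granule genes, 2 fell and 0 rose between MSC-EV and PBS (limma), and the median difference was -0.32. In both MSC-EV comparisons 9 of the 12 differences were below 0, as was that of Lcn2. The other 3 were above 0, as were those of Ltf, Ngp and Camp. Cd177, a neutrophil surface glycoprotein stored in these granules, had mean TPM of 69.8 ± 11.9 with PBS, 66.4 ± 9.77 with HEK-EV and 40.4 ± 6.08 with MSC-EV (-0.77, SE 0.156, adjusted p = 0.0310). Chil3, a chitinase-like protein that monocytes and macrophages also make, fell by 1.40 (adjusted p = 0.0353). It belongs to a family of related genes, and how far they share reads was not tested. Against HEK-EV 4 fell, the same genes with Pglyrp1 (-0.90, adjusted p = 0.0267), a peptidoglycan-binding protein, and Hp (-0.99, adjusted p = 0.0284), haptoglobin. Mmp8, neutrophil collagenase, averaged 93.9 ± 22.1, 109.5 ± 38.3 and 73.5 ± 9.03 TPM and did not pass in either comparison. Between HEK-EV and PBS the smallest p of the list was that of Olfm4 (0.61, SE 0.137, adjusted p = 0.999).

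Of the 8 other primary granule genes 5 were tested. Cd63, a membrane protein of azurophil granules and of lysosomes in many cells, rose from 152 ± 49.2 TPM in PBS and 160 ± 12.8 in HEK-EV to 334 ± 74.0 in MSC-EV (1.16, SE 0.216, adjusted p = 0.0260 against PBS and 0.0300 against HEK-EV). Ctsc, the protease that activates Elane, Prtn3 and Ctsg proteins, fell by 0.37 against PBS (adjusted p = 0.0430) and by 0.44 against HEK-EV (adjusted p = 0.0263), calls lost under 15 of 19 and 12 of 20 alternatives. Srgn, the granule proteoglycan, fell against HEK-EV only past the threshold (-0.56, adjusted p = 0.0423, and -0.29, adjusted p = 0.236, against PBS), and it overlaps another annotated gene. Prss57, a serine protease of the same granules, was at 0.115 to 0.536 TPM, and Ms4a3, a marker of granulocyte progenitors, was listed at 0 in every sample. Between HEK-EV and PBS the smallest p was that of Srgn (0.28, adjusted p = 0.999).

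Of 8 regulators of granule genes 6 were tested. Cebpb fell between MSC-EV and PBS (-0.52, adjusted p = 0.0273), from 331 ± 38.9 to 230 ± 17.7 TPM. Cebpa rose against HEK-EV (0.73, adjusted p = 0.0373), and Cebpd, which overlaps another gene, fell against it (-0.45, adjusted p = 0.0267). Csf3r, Sox4, Cd34, Top2a and Vcan, named below, also overlap other annotated genes. So do Mmp8, Mpo, Prss57 and Mcpt8, and the effect of such overlaps was not tested. Cebpe, which encodes C/EBP epsilon, averaged 4.43 ± 1.74, 4.63 ± 1.44 and 2.22 ± 0.425 TPM, and its difference of -0.71 from PBS did not pass (adjusted p = 0.111). Its mean was thus lowest in the group in which Ltf, Ngp and Camp were highest. Gfi1 and Myb, factors of early granulocytes, were under 0.5 TPM in every sample. With HEK-EV against PBS the smallest p was that of Cebpb (-0.21, adjusted p = 0.999).

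Markers of other cells are given because these samples can hold them. The 12 mature neutrophil genes summed to 3632 to 6319 TPM in the PBS samples, 5762 to 7810 with HEK-EV and 3615 to 4676 with MSC-EV, and all 12 were above 0 in every sample. Between MSC-EV and PBS limma called 0 of the 12 (median -0.08, with 1 at an unadjusted p under 0.05), and 2 fell against HEK-EV, Stfa2l1 (-1.28, adjusted p = 0.0263) and Csf3r (-0.35, adjusted p = 0.0402). For HEK-EV against PBS limma called 0, while all 12 differences were above 0 (median 0.44) and 7 had an unadjusted p under 0.05. S100a9, a calcium-binding protein and the most abundant of the list, had 479 to 1800 times the TPM of Ltf with PBS or HEK-EV and 185 to 340 times with MSC-EV. Of the 8 granulocyte progenitor and cell cycle genes, Sox4 (0.76, adjusted p = 0.0416) and Nkg7 (0.70, adjusted p = 0.0424) rose against PBS, both of them also genes of lymphoid cells. Nkg7 also rose against HEK-EV (0.66, limma adjusted p = 0.0468). Against PBS the median of the 8 was 0.37, with 6 differences above 0 and 2 below, those of Kit (-0.15) and Cd34 (-0.07). Mki67 and Top2a did not pass, at 16.2 to 55.9 and 22.5 to 55.4 TPM over the 9 samples.

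Some transcripts of hepatocytes and bile duct cells were also higher in the MSC-EV group. The 8 hepatocyte genes summed to 192 to 260 TPM in the PBS samples, 136 to 284 with HEK-EV and 357 to 465 with MSC-EV, and 2 of the 6 tested rose against PBS (Apoa1 and Cyp2e1). Of the 8 genes, 6 to 8 were above 0 in each sample. Alb was at 135 to 185, 89.9 to 193 and 257 to 329 TPM in the same order. The 5 biliary genes were above 0 in every sample and summed to 737 to 1707, 890 to 1178 and 1767 to 2355 TPM, nearly all of it Spp1 (group means 1138, 1006 and 2020 TPM), which macrophages also make. The other genes of the list had group means of at most 5.53 TPM, and 3 of them rose against PBS, Krt19 (1.54, adjusted p = 0.0231), Epcam (1.17, adjusted p = 0.0171) and Sox9 (0.72, adjusted p = 0.0310). The hepatocyte and biliary lists were both highest in MSC-EV replicate 2 on their median, the MSC-EV sample lowest in Ltf, Ngp and Camp. The acinar and the granulocyte progenitor lists had their lowest MSC-EV sums in that sample, at 13.7 and 116 TPM. The part of any of these cells in the level of Ltf was not tested. Of 6 monocyte genes 2 fell between MSC-EV and PBS (Vcan and Ly6c2) and 3 between MSC-EV and HEK-EV, and all 6 differences were below 0 in both, with medians of -0.91 and -1.03. Their sum was 2024 to 3063 TPM with PBS, 2417 to 2900 with HEK-EV and 1371 to 1687 with MSC-EV. The other granule genes and regulators had medians of -0.33 and -0.52 in the same comparisons, and the part of monocytes in their levels was not tested. Of 8 macrophage genes 1 rose against PBS (Apoe) and 2 against HEK-EV (Apoe and Cd68), with medians of 0.25 and 0.18. The basophil and mast cell genes summed to 0.725 to 3.65 TPM, and the eosinophil granule genes Epx and Prg2 were listed at 0 throughout. The other eosinophil genes, Siglecf and Ccr3, were present in every sample, at 6.98 to 13.6 and 2.26 to 4.73 TPM.

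The genes whose levels over the 9 samples were most like Ltf were searched among 9680 genes with a mean of at least 5 TPM. They were Glt8d1 (Pearson r 0.94, Spearman rho 0.733), Serpina1b (0.936 and 0.883), Serpina1d (0.931 and 0.867), Fundc2 (0.926 and 0.717) and Ap5s1 (0.922 and 0.733). Serpina1b and Serpina1d encode antitrypsins secreted by hepatocytes and belong to a family of closely related genes, and how far these share reads was not tested. Serpina1b was at 15.4 to 19.1 TPM with PBS, 9.36 to 17.4 with HEK-EV and 25.8 to 26.5 with MSC-EV. These coefficients rest on the MSC-EV samples, which stand apart from the other 6 in Ltf, and were picked as the highest of many, so they carry no p-value. Most like the mean of the 4 primary genes were Spint1 (0.96 and 0.95), Oaz2, Btg2, S100a11 and Map3k15, with Pearson r down to 0.933. Spint1, a protease inhibitor, was at 6.25 to 12.98 TPM with PBS, 8.23 to 11.1 with HEK-EV and 5.35 to 6.88 with MSC-EV.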

How the data were processed

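Reads were aligned to mm10 with HISAT2 2.1.0 and genes quantified with StringTie by the authors, per the submitters' processing notes; the libraries were made with a stranded mRNA kit, per the labels' protocols, and whether strand was used in counting is not given in the sources used here. The deposited tables give TPM, FPKM and coverage (mean read signal over a gene) per gene, per the file headers. The TPM deposited by the authors sum to 1000000 in each sample. FPKM deposited by the authors and the deposited coverage served for depth and as an alternative. Gene IDs were matched to RefSeq GRCm38.p6 (45679 of 45777 had a symbol, 99.79%), and rows of 1 gene were summed.

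Differences are of log2(TPM + 1). A gene was tested if 3 or more of the 9 samples had 1 TPM or more, using limma (version 3.58.1, R 4.3.3; trend, no covariate, all 9 samples in 1 fit, two-sided, Benjamini-Hochberg over the 13820 genes, threshold 0.05), a fit checked on simulated data. An exact permutation test of 3 against 3 cannot pass that threshold and was not used. Members, gene lists and motifs were chosen with earlier results of these data known. Besides members and their nearest genes, genes past the threshold in a list (up to 4 of smallest p, otherwise that of smallest p), cell type markers and the 5 genes most like Ltf or the primary mean were named. Mmp8, Cebpe, Prss57, Ms4a3, Gfi1 and Myb fall outside that rule and were named after their values were seen. Python 3.11.15 was used for tables and figures. Alternatives were another pseudocount, 2 other filters, FPKM, 2 other scalings, only the 6 samples compared, a replicate block, and every sample left out in turn. Fits without or with only the samples holding acinar transcripts (median of the 10 genes above 0.3 TPM) and with depth as a term were chosen after seeing the data.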

Additional observations from a re-analysis of the deposited data

How the results depend on the processing

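The differences of Ltf, Camp, Lcn2 and Prtn3 between MSC-EV and each other group kept their sign under every alternative run, from 0.55 to 1.05 for Ltf against PBS. Several alternatives could not move them, because a member's difference is a plain difference of group means. These were the other filters, the fit of only 6 samples, the replicate block and leaving out a sample of the group not compared. The same holds for the means of the members below. Genes called between MSC-EV and PBS numbered 706, against 361 without a filter, 167 with only the 6 samples compared, 404 with the replicate block, 50 without the samples with acinar transcripts, 1332 with depth as a term, and 5 to 1881 when 1 sample was left out. The granule and regulator genes called, 8, became 2, 2, 0 and 16 without a filter, with 6 samples, without acinar samples and with depth, and 0 to 19 with 1 sample left out. Between MSC-EV and HEK-EV the 817 genes became 387 (no filter), 459 (FPKM), 501 (median-of-ratios scaling), 448 (replicate block), 69 (without acinar samples), 268 (only acinar samples), 1453 (depth) and 0 to 1384 (1 sample left out). The 14 granule and regulator genes became 3 (no filter), 4 (FPKM), 7 (median-of-ratios), 9 (quantile), 0 (without acinar samples), 9 (only acinar samples) and 0 to 19. Between HEK-EV and PBS 0 genes became 4 without a filter and 0 to 2 with 1 sample left out. The mean of the secondary members against PBS was -0.04995 with depth, 0.05 without acinar samples and 0.18 to 0.57 with 1 sample left out. Against HEK-EV it was -0.54 without and 0.91 with only acinar samples, and 0.15 to 0.74 with 1 sample left out. For HEK-EV against PBS it was 0.59 without acinar samples and -0.35 to 0.24 with 1 left out. The primary mean was -0.75 and -0.92 with a pseudocount of 0.1 against PBS and HEK-EV, -0.81 and -0.57 with depth, -0.70 against HEK-EV without acinar samples, -0.53 to -0.14 and -0.46 to -0.25 with 1 left out, and -0.15 to 0.24 for HEK-EV against PBS. The cause of these shifts was not tested. The depth ratio was highest in the MSC-EV samples, so a fit with depth as a term cannot separate it from that group. Replicate numbers showed no pairing of the samples (correlations of same-numbered deviations -0.499 to 0.058), and not every sample correlated best with its own number. No pairing was therefore used in the main fit, and whether same-numbered samples shared a batch was not tested. Where 1 sample of a group remains, it is assumed to vary like the other groups. Read depth is unknown, so what it limits for genes under 1 TPM was not tested.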
